A study of Mus musculus with 2 samples.

Results

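Macrophages with at least 3 of 7 markers, among them *Gpr34*, *Fcrls* and *Bank1*, were examined in denervated mouse muscle, where they numbered 4623 of 48143 barcodes and 25917 macrophages. A member need not carry any particular one of the markers. The cells were chosen by measured values. Barcodes needed over 200 detected genes and a mitochondrial share under 10% of their UMIs (unique molecular identifiers, 1 per captured RNA molecule). A barcode was a macrophage when at least 2 of *C1qa*, *C1qb*, *C1qc* and *Csf1r* had a UMI. It was a member when at least 3 of the 7 markers *Gpr34*, *Fcrls*, *Bank1*, *Cd33*, *St3gal6*, *Il10* and *Cx3cr1* had a UMI and fewer than 2 of the 6 resident genes *Lyve1*, *Cd209f*, *Cd209g*, *Cd163*, *Fcna* and *Pla2g2d* did. Macrophages with at least 2 of the 6 resident genes are called resident macrophages here, and they numbered 2772.

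Both libraries came from hind limb muscle of male mice of 10 to 16 weeks at 7 dpi (days after injury) of the peroneal nerve on both sides. In one, the TA (tibialis anterior) had been injected with goat anti-mouse IgG as the control, and in the other with SPP1-nAb, an antibody that neutralizes SPP1 (osteopontin), each as 2 μg in 10 μL from the injury on and then every 2 days. Mice were pooled and their number is not stated, and each condition had 1 library, so differences between the libraries could not be set against a spread between replicates, and they were not tested. The labels name the strain C57BL/6J, TA and gastrocnemius muscle, and sorted GFP-positive cells, whereas the methods describe *S100GFP*-tg reporter mice and a sort of both GFP+ and GFP- live cells. The reporter is driven by an *S100* promoter, and the share of GFP- cells that was loaded is not given, so each share below describes a library and not the muscle. The IgG library held 97607674 UMIs on 23779 barcodes and the SPP1-nAb library 127719916 UMIs on 25069 barcodes. Of these, 163 barcode sequences occurred in both libraries, and 1 of them was a member in both. Intervals are exact 95% intervals for counting error only, and levels are CPM, the UMIs of a gene per 1000000 UMIs of the same cells.

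Macrophages of muscle are replenished from blood monocytes after injury and coexist with self-renewing resident cells around vessels and nerves. *Gpr34*, a receptor for lysophosphatidylserine, *Fcrls*, an Fc receptor-like scavenger molecule, and *Cx3cr1*, the receptor for the chemokine fractalkine, are best known from microglia, the macrophages of the central nervous system, and from macrophages of peripheral nerve. *Cd33* encodes an inhibitory receptor for sialic acid, *St3gal6* an enzyme that adds sialic acid to glycans, *Bank1* an adaptor of B cell receptor signaling that some myeloid cells also express, and *Il10* an anti-inflammatory cytokine.

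The members made up 2373 of 11510 IgG macrophages, or 20.6% (19.9 to 21.4), and 2250 of 14407 SPP1-nAb macrophages, or 15.6% (15.03 to 16.2). The share in the SPP1-nAb library was lower in percentage points, with a difference of -5.00 (-5.95 to -4.05). Members had a median of 4023 UMIs in the IgG library and 5022.5 in the SPP1-nAb library, and other macrophages 4243 and 5452. When each cell was thinned to 2000 UMIs before the rule was applied, which left out 4275 IgG and 3715 SPP1-nAb barcodes, the shares were 11.3% and 6.33% and the difference was -4.96 points (-5.73 to -4.20). The shares of macrophages thus depended on depth. Their difference in points did not move beyond its counting error, whereas the SPP1-nAb share was 0.757 of the IgG share as deposited and 0.561 of it after thinning. Of all barcodes, members were 10.1% and 9.09%, a difference of -1.06 points (-1.59 to -0.53), and after thinning 5.81% and 3.68%, a difference of -2.13 points (-2.55 to -1.71), so that with this denominator the difference moved with depth.

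No gap separated members from other macrophages at the threshold of the rule. Among IgG macrophages with fewer than 2 resident genes, 2942 cells had none of the 7 markers, 2495 had 1, 1868 had 2, 1299 had 3, 699 had 4 and 299 had 5. The SPP1-nAb library had 5460, 3589, 2168, 1294, 689 and 223 such cells. The counts thus declined stepwise, with more cells just outside the rule than just inside it. All 7 markers were found together in 9 IgG cells and 1 SPP1-nAb cell. The sets of 3 or more markers found together numbered 99 in the IgG members and 96 in the SPP1-nAb members, of which *Gpr34*, *Fcrls* and *Cd33* was the most frequent with 4.80% and 5.82% of the members.

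The levels of the markers in members follow from the rule and are given as a description. *Gpr34* (ENSMUSG00000040229; GRCm39, chromosome X, 13489625 to 13507116) was at 265 CPM (256 to 275) in IgG members against 94.3 CPM (91.4 to 97.2) in other IgG macrophages, and at 167 CPM (160 to 174) against 33.4 CPM (32.1 to 34.8) in the SPP1-nAb library. *Fcrls* (ENSMUSG00000015852, named *Fcrl2* in GENCODE M39; chromosome 3, 87156616 to 87181827) was at 263 and 239 CPM in members of the IgG and SPP1-nAb libraries against 80.2 and 51.2 CPM. *Bank1* (chromosome 3, 135759124 to 136031827) was at 126 and 91.1 CPM against 44.5 and 17.2 CPM. *Fcrls* was thus the most widely detected marker, with a UMI in 67.0% of IgG and 70.5% of SPP1-nAb members, and *Bank1* was among the least, with 37.8% and 33.7%. *Cd33* was at 212 and 200 CPM in members, *St3gal6* at 154 and 75.4 CPM, *Il10* at 256 and 217 CPM, and *Cx3cr1* at 225 and 192 CPM.

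Most markers were close to 0 in barcodes of another cell type, where free RNA can give a UMI. In mesenchymal-type barcodes, which had at least 4 of *Pdgfra*, *Col1a1*, *Col3a1*, *Dcn* and *Lum* and fewer than 2 of the macrophage genes, a *Gpr34* UMI was found in 0.650% of 2462 IgG barcodes and 0.806% of 1116 SPP1-nAb barcodes, at median depths of 5208.5 and 7717.5 UMIs. *Cx3cr1* was found in 5.12% and 8.87% of them and *St3gal6* in 10.5% and 6.63%. These 2 markers were thus detected more often there than *Gpr34*, and free RNA and expression by those cells cannot be told apart. *Gpr34*, *Fcrls* and *Bank1* were at 1.29, 1.29 and 1.15 CPM there in the IgG library.

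Detection of each marker was also described in macrophages with fewer than 2 resident genes, grouped by the other 6 markers at 2000 UMIs per cell. Both the markers and the limit on resident genes are those of the rule, chosen with earlier results of these data known. The shares are thus a description and not support for the rule. *Gpr34* had a UMI in 10.6% (9.63 to 11.6) of IgG macrophages with none of the other markers, in 24.0% (22.4 to 25.6) with 1, in 29.8% (27.4 to 32.3) with 2 and in 38.3% (34.7 to 42.1) with 3 or more. *Fcrls* climbed from 11.1% to 38.96% over the same groups, *Cd33* from 9.95% to 34.3%, *St3gal6* from 5.69% to 24.6% and *Bank1* from 4.48% to 20.7%. *Cx3cr1* climbed less, from 11.9% to 26.1%. *Il10* was the exception, with 11.1% (10.1 to 12.1), 15.3%, 15.8% and 15.2% (12.9 to 17.7), so that beyond 1 other marker its share no longer increased. In the SPP1-nAb library the same 6 markers climbed, *Gpr34* from 5.60% to 29.7% and *Fcrls* from 8.74% to 40.3%, while *Il10* was at 8.63%, 14.0%, 15.3% and 13.3%. The *Il10* pattern was thus seen in both libraries. Depth was equal in these groups, but they share libraries and cell states, and no test was made.

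**Figure D1:**
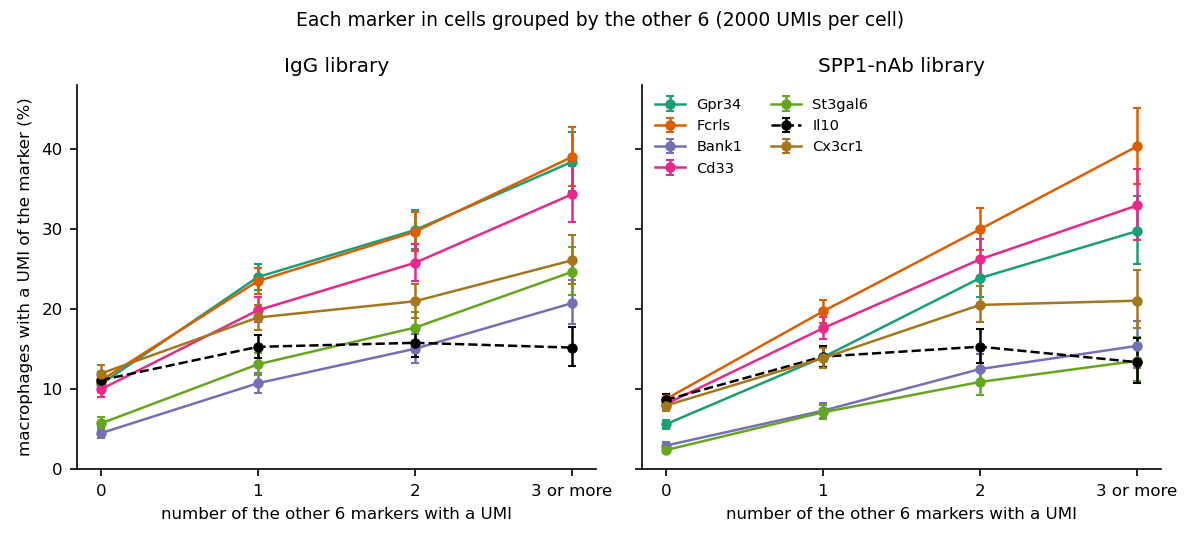
Share of macrophages with a UMI of each marker (y axis, percent, after thinning to 2000 UMIs per cell) by the number of the other 6 markers detected in the same cell (x axis), for the IgG (left) and SPP1-nAb library (right), with bars for exact 95% intervals. The lines of 6 markers climb to the right, from 10.6% to 38.3% for Gpr34 in the IgG library, whereas Il10 (dashed) stays near 15% from 1 other marker on.

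Resident macrophages, which the rule sets aside, shared most of the markers. *Gpr34* was at 298 CPM (286 to 310) in IgG resident macrophages and at 179 CPM (168 to 190) in SPP1-nAb resident macrophages, log2 ratios of members over resident cells of -0.17 and -0.10. *Cd33* was at 220 and 188 CPM, *Bank1* at 150 and 87.8 CPM, *St3gal6* at 143 and 57.6 CPM and *Fcrls* at 192 and 196 CPM. These 5 markers differed by less than 2-fold between members and resident cells in either library. *Cx3cr1* was at 64.2 and 49.5 CPM in resident macrophages, log2 ratios of members over them of 1.81 and 1.95, and *Il10*, with 124 and 148 CPM, had ratios of 1.05 and 0.55. Members had to carry 3 markers and resident macrophages did not, so these ratios follow in part from the rule. Of the macrophages with at least 3 markers, 1044 IgG cells (30.6%) and 471 SPP1-nAb cells (17.3%) were set aside for their resident genes.

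**Figure D2:**
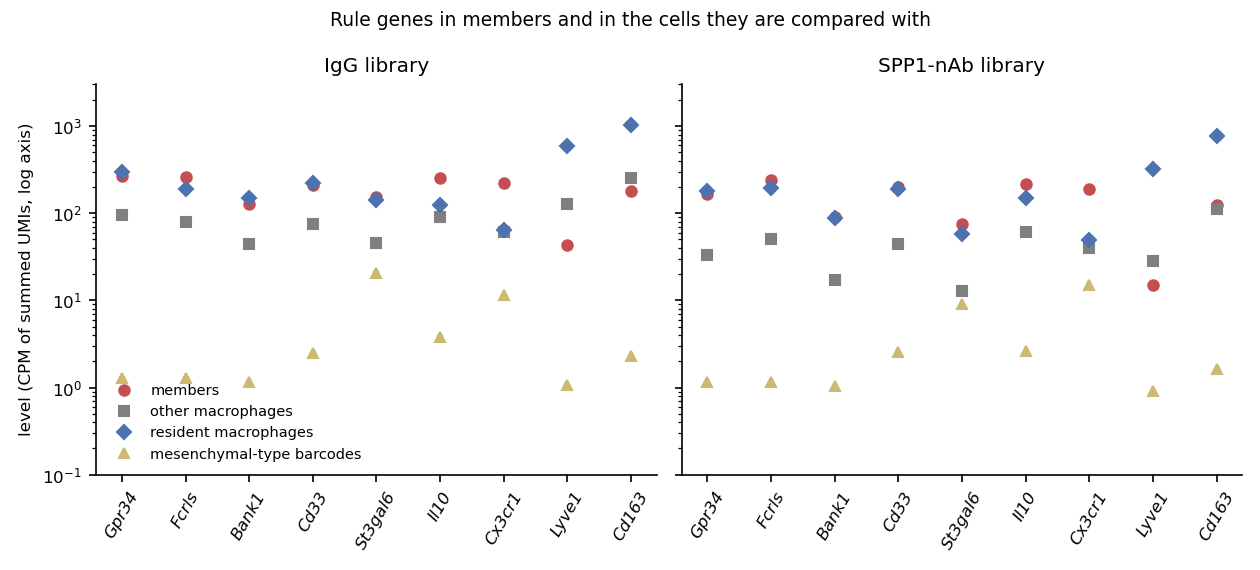
Level of the 7 markers and of Lyve1 and Cd163 (y axis, CPM on a log axis) in members (circles), all other macrophages (squares), resident macrophages (diamonds) and mesenchymal-type barcodes (triangles) of each library. Gpr34, Fcrls, Bank1, Cd33 and St3gal6 lie at similar levels in members and resident macrophages, Cx3cr1 lies higher in members, and Lyve1 and Cd163 lie lower in members than in resident macrophages.

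Of 8879 genes compared between members and resident macrophages, 67 (0.755%) were at least 2-fold higher and 97 (1.09%) at least 2-fold lower in members of both libraries. The rule used these cells, so the counts are a description. Genes higher in members, chosen after their values had been seen, included *Runx3*, a transcription factor, at 47.6 and 69.8 CPM against 12.2 and 21.7 CPM, *Sema4d*, a membrane-bound semaphorin, at 72.5 and 88.1 CPM against 20.5 and 27.4 CPM, and *Cd72*, an inhibitory C-type lectin, at 52.1 and 52.5 CPM against 12.7 and 18.9 CPM. Genes lower in members included *Timd4*, a phosphatidylserine receptor of long-lived resident macrophages, at 3.796 and 1.01 CPM against 41.6 and 16.3 CPM, and *Ednrb*, the endothelin receptor type B, at 93.3 and 101 CPM against 455 and 456 CPM. Other genes typical of resident macrophages lay closer. *Folr2* was still over 2-fold lower in members of both libraries, at 236 and 195 CPM against 648 and 576 CPM. *Mgl2*, a lectin, was below 2-fold, at 322 and 275 CPM against 431 and 345 CPM.

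All other comparisons are with the other macrophages of the same library, resident cells included. Of 11331 genes with enough UMIs, 52 (0.459%) were at least 2-fold higher and 117 (1.03%) at least 2-fold lower in members of both libraries, and the median log2 ratio over all genes was 0.04 and 0.02. The 52 genes were 64.2% of the 81 that passed in the IgG library and 17.6% of the 296 that passed in the SPP1-nAb library. Of the 52, 27 passed when the other macrophages were weighted to the members' depth. When each cell was thinned to 2000 UMIs before the rule, which left 8948 genes to compare, 10 passed. Against other macrophages without resident cells, 216 of 11000 genes compared were higher, 46 of the 52 among them. Genes lower in members numbered 288 of 10524 compared without the 10% of barcodes scoring highest as doublets. They numbered 62 of 11331 with at least 2 of the 7 markers.

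Among the genes higher in members, those outside the rule were mostly of low level. *Rcan1*, an inhibitor of calcineurin that is itself induced by calcium signals, had the highest level of the 25 leading genes, with 75.8 and 90.3 CPM in members against 32.2 and 34.7 CPM, log2 ratios of 1.23 (1.11 to 1.36) and 1.38 (1.28 to 1.48). *Rapsn* (GRCm39, chromosome 2, 90865892 to 90876082), known for anchoring acetylcholine receptors at the muscle endplate, was at 29.4 and 30.9 CPM against 11.7 and 11.8 CPM. *Lilra5*, an activating immunoglobulin-like receptor, was at 16.9 and 11.6 CPM against 6.46 and 2.37 CPM. *Ch25h*, which makes 25-hydroxycholesterol, was at 17.7 and 12.7 CPM against 8.05 and 4.24 CPM, and *Cd276*, an immune checkpoint ligand, at 7.04 and 4.26 CPM against 2.63 and 1.77 CPM. Of the 25 leading genes, only *Rcan1* and the noncoding *Gm13710* stayed at least 2-fold higher in both libraries in all 11 alternatives tried, *Rapsn* in 10 of them, *Lilra5* and *Cd276* in 9 and *Ch25h* in 7.

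Genes lower in members were mostly more abundant. *Fabp5*, a fatty acid carrier, was at 310 and 734 CPM against 1670.5 and 2772 CPM, *Cxcl3*, a chemokine for neutrophils, at 49.0 and 64.8 CPM against 183 and 243 CPM, and *Ly6c2*, a marker of recently arrived monocytes, at 52.8 and 38.6 CPM against 323 and 153 CPM. *F7* and *F10*, which encode coagulation factors, had log2 ratios of -3.25 and -2.29 in the IgG library and -2.30 and -1.92 in the SPP1-nAb library. These 5 genes and *Chil3*, *Fabp4* and *Il7r* were at least 2-fold lower in both libraries in all 11 alternatives.

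Levels of 4 genes were also followed by the number of markers, which the rule itself uses, as a description. At 2000 UMIs per cell, *Fabp5* was at 2178 CPM in IgG macrophages with none of the markers, 774 CPM with 1, 238 CPM with 2, 135 CPM with 3 and 118 CPM with 4 or more. *Ly6c2* over the same groups was at 519, 222, 47.6, 25.9 and 14.0 CPM. *Rcan1* went the other way, with 19.5, 46.2, 61.8, 82.9 and 96.6 CPM, as did *Mef2c*, a transcription factor of microglia, with 251, 490, 640, 774 and 801 CPM. For all 4 genes most of the change in CPM in the IgG library thus lay between 0 and 2 markers, outside the rule, though for *Rcan1* only narrowly. In the SPP1-nAb library *Fabp5* was at 2990, 1311, 517, 257 and 161 CPM and *Ly6c2* at 205, 80.4, 40.2, 17.4 and 7.54 CPM. *Rcan1* was at 23.3, 59.4, 85.6, 102 and 188 CPM there, with most of its change beyond 2 markers. *Mef2c* was at 163, 298, 434, 538 and 598 CPM.

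Genes of lists by function, chosen with earlier results of these data known, were counted in the same way and read against the background of 0.459% and 1.03%. Of 12 genes of microglia and nerve macrophages that were compared, 0 were at least 2-fold higher in both libraries and 9 had a ratio above 1 in both, which 43.0% of all genes compared had and 35.4% had below 1 in both, with a median log2 ratio of 0.61 and 0.89. *P2ry12*, a purine receptor of microglia, was at 77.7 and 54.7 CPM in members against 44.4 and 23.2 CPM, *Cd81* at 263 and 192 CPM against 155 and 81.9 CPM, and *P2ry6*, a receptor for UDP, at 145 and 142 CPM against 93.1 and 79.9 CPM. *Tmem119*, which marks microglia, was at 5.83 and 6.59 CPM against 3.41 and 2.86 CPM, and *Sall1*, their defining transcription factor, had 1 UMI in all IgG members and 0 in SPP1-nAb members, which allows at most 0.233 CPM. *Sall1* was thus at or near 0 in members. *Tmem119* had log2 ratios of 0.77 and 1.21, and of 1.11 and 1.46 without the 10% of barcodes scoring highest as doublets, over 2-fold in both libraries. *Sparc*, from the same list, went the other way without those barcodes, with log2 ratios of -1.72 and -1.43, over 2-fold lower in both.

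Genes around the markers' own functions seldom differed by 2-fold. Of 10 receptors and enzymes of lysophosphatidylserine and related lipids, *Gpr183*, a receptor for oxysterols, was highest above other macrophages, with 254 and 144 CPM against 148 and 76.1 CPM, and *Abhd12*, which degrades lysophosphatidylserine, was at 159 and 153 CPM against 138 and 128 CPM. Of 11 genes of sialic acid biology 0 passed 2-fold, *Siglece*, another inhibitory sialic acid receptor, being at 19.3 and 15.2 CPM against 10.3 and 5.73 CPM. Of 13 genes of the IL-10 pathway 10 had a ratio above 1 in both libraries, against 43.0% of all genes, and 0 passed 2-fold. *Stat3*, the transducer of the IL-10 receptor, was at 417 and 383 CPM against 328 and 266 CPM and *Socs3*, its feedback inhibitor, at 350 and 292 CPM against 259 and 190 CPM, whereas *Il1rn*, the antagonist of the IL-1 receptor, was at 108 and 242 CPM against 245 and 332 CPM. Among 8 genes that act with *Bank1* in antigen receptor signaling, *Blnk* was at 173 and 206 CPM against 124 and 121 CPM and *Inpp5d* at 301 and 294 CPM against 207 and 188 CPM.

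Of 8 genes of B cells, in which *Bank1* is best known, *Pax5*, *Cr2* and *Fcmr* had no UMI in members of either library. *Ms4a1*, which encodes CD20, had 12 and 20 UMIs, or 1.11 and 1.55 CPM in members against 0.355 and 0.507 CPM in other macrophages. *Cd79a* was at 0.0926 and 0.388 CPM against 0.403 and 0.197 CPM. *Cd79b*, which other leukocytes also express, was at 14.9 and 11.2 CPM against 6.75 and 5.34 CPM, at least 2-fold higher in both libraries. The whole B cell list summed to 87.6 and 43.5 CPM in members against 61.5 and 43.6 CPM and was led by *Ebf1*, which mesenchymal cells express as well. Without the 10% of barcodes scoring highest as doublets, it summed to 22.97 and 30.7 CPM against 27.9 and 24.2 CPM, so that the direction turned in the IgG library. In the SPP1-nAb library the sums, nearly equal before, were then higher in members. Genes of T and NK cells summed to 1.57 and 2.25 CPM. The neutrophil list summed to 89.2 and 128 CPM in members against 63.4 and 239 CPM, led by *S100a9* at 45.1 and 64.8 CPM against 25.1 and 116 CPM, while *Ly6g*, its defining marker, was at 0 in members of both libraries. Without the same barcodes the neutrophil list summed to 12.4 and 40.5 CPM against 35.9 and 144 CPM, and *S100a9* was at 2.76 and 17.7 CPM in members, so that here too the IgG direction turned. The part of these cell types in the results was not tested.

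Lists of monocytes and lipid-handling macrophages were lower in members. Of 10 monocyte genes 6 were at least 2-fold lower in both libraries, with a median log2 ratio of -1.64 and -1.35, *Plac8* for example at 101 and 87.4 CPM against 381 and 241 CPM. *Ccr2*, the receptor that brings monocytes into tissue, was the exception, with 705 and 520 CPM against 624 and 516 CPM. Without the 10% of barcodes scoring highest as doublets, *Plac8* was at 40.3 and 57.8 CPM in members, with log2 ratios of -3.11 and -1.98. *Ccr2* then had log2 ratios of 0.20 and -0.03, so that it was no longer higher in members of the SPP1-nAb library. Of 12 lipid-associated genes 6 were at least 2-fold lower in both, among them *Gpnmb* at 21.2 and 93.7 CPM against 120 and 207 CPM, *Lgals3* at 639 and 1106 CPM against 2272 and 3096 CPM, and *Spp1* itself at 171 and 414 CPM against 811 and 1168 CPM. *Apoe* ran counter to its list, at 10370 and 11024 CPM against 6479 and 6378 CPM, and *Trem2* hardly differed, at 229 and 295 CPM against 217 and 280 CPM. Summed over members, *Spp1* and *Gpnmb* were thus lower and *Apoe* higher than in other macrophages.

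**Figure D3:**
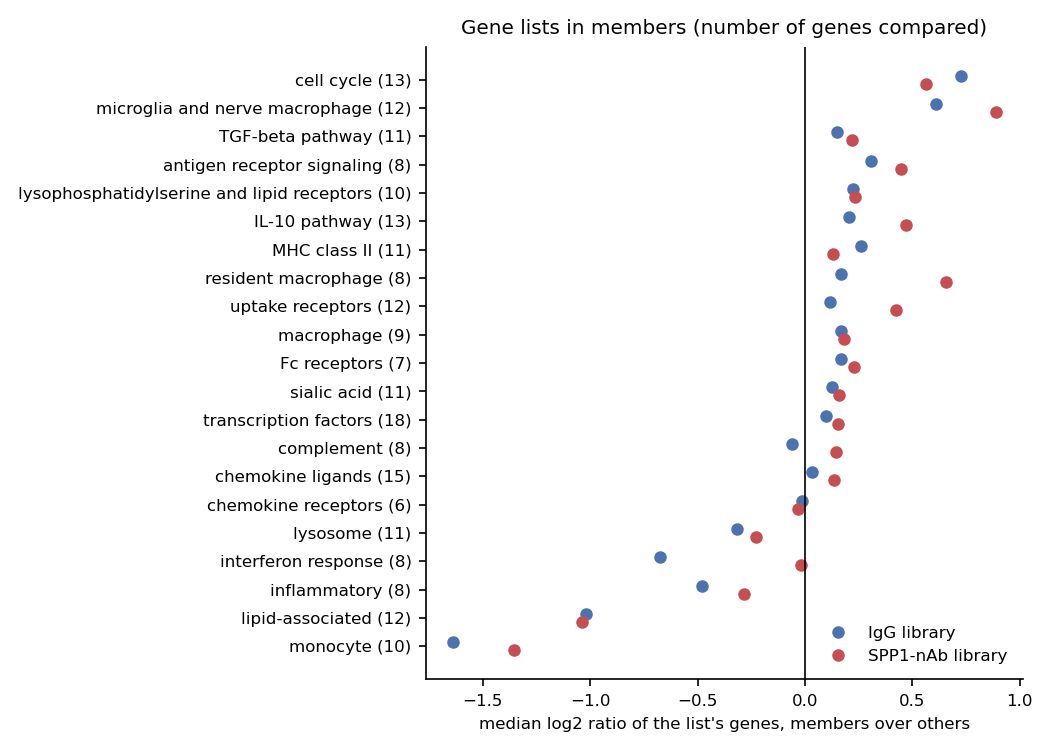
Median log2 ratio of members over other macrophages (x axis) over the compared genes of each list by function shown (y axis, number of genes in parentheses) in the IgG and SPP1-nAb libraries. Monocyte and lipid-associated genes lie furthest to the left, at -1.64 and -1.02 in the IgG library, and cell cycle and microglia genes furthest to the right among the lists shown in that library, at 0.73 and 0.61.

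Chemokines split within their list. *Ccl6*, *Ccl24* and *Cxcl3* were at least 2-fold lower in members of both libraries, *Ccl6* at 949.8 and 1275 CPM against 2669.9 and 3517 CPM. *Ccl3*, *Ccl4* and *Cxcl16* lay higher, *Ccl4* at 2449.7 and 2668 CPM against 1784 and 1262 CPM, and *Tnf*, from the inflammatory list, at 328 and 303 CPM against 236 and 144 CPM. The monocyte attractant *Ccl2* was at 1303 and 1456 CPM against 2251 and 1682 CPM. Members were thus lower in some inflammatory mediators and higher in others.

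Growth factors and regulators included *Pdgfb*, at 39.8 and 32.0 CPM against 19.5 and 13.7 CPM, 1 of 10 growth factor genes at least 2-fold higher in both libraries. *Vegfa* was lower, at 32.0 and 51.6 CPM against 108 and 143 CPM. Of 18 transcription factors, *Mef2c* was at 610 and 384 CPM against 361 and 184 CPM, *Egr1* at 876 and 483 CPM against 611 and 248 CPM, *Runx1* at 759 and 846 CPM against 536 and 531 CPM, and *Maf*, which drives *Il10* in macrophages, at 1346 and 1021 CPM against 989 and 640 CPM. *Bhlhe40*, which represses *Il10*, was at 40.7 and 66.4 CPM against 102 and 139 CPM. In the TGF-beta pathway *Tgfbr1* was at 124 and 158 CPM against 84.7 and 93.8 CPM and *Tgfbr2* at 200 and 178 CPM against 142 and 99.5 CPM, both below 2-fold. *Itga9*, an integrin subunit that binds SPP1, was at 76.6 and 82.0 CPM against 39.6 and 34.5 CPM.

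Of 13 cell cycle genes 12 had a ratio above 1 in both libraries, against 43.0% of all genes, and 0 passed 2-fold in both, with a median log2 ratio of 0.73 and 0.56. *Mki67* had a UMI in 10.7% of IgG and 17.1% of SPP1-nAb members and was at 52.2 and 56.4 CPM against 28.7 and 32.5 CPM, and *Top2a* was at 42.8 and 35.3 CPM against 23.4 and 23.9 CPM. Interferon genes differed between the libraries, with a median log2 ratio of -0.67 in the IgG library and -0.02 in the SPP1-nAb library. *Isg15* was at 238 and 245 CPM in members against 604 and 352 CPM, so that the libraries lay closer in members than in other macrophages.

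Within the members, cells with and without *Il10* differed in genes outside the rule. *Il10* was found in 810 IgG and 936 SPP1-nAb members, at median depths of 4541 and 5400 UMIs, against 3760 and 4697.5 UMIs in members without it. *Il1b* was at 1126 and 1523 CPM in members with *Il10* and at 711 and 995 CPM in those without, *Cxcl2* at 9357 and 10687 CPM against 5892 and 7252 CPM, and *Il1rn* at 164 and 312 CPM against 72.6 and 186 CPM. *Ciita*, the master regulator of MHC class II, was lower, at 33.2 and 28.5 CPM against 59.3 and 39.2 CPM, while the IL-10 target *Socs3* was at 344 and 298 CPM against 354 and 288 CPM. *Il1b*, *Cxcl2* and *Il1rn*, the last an antagonist of inflammation, were thus higher in members with *Il10* in both libraries. These members were also the deeper cells, and the part of depth in this was not tested.

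A split by *Cx3cr1* separated other genes. *Itgax*, which encodes CD11c, was at 16.4 and 31.9 CPM in the 1237 IgG and 1187 SPP1-nAb members with *Cx3cr1* and at 4.25 and 7.30 CPM in those without, log2 ratios of 1.95 and 2.13. *Axl*, a receptor for apoptotic cells, was at 86.4 and 99.8 CPM against 34.2 and 52.5 CPM. *Folr2*, *Cbr2* and *F13a1*, which are typical of resident macrophages, were lower with *Cx3cr1*, *Folr2* at 165 and 135 CPM against 319 and 270 CPM. The rule requires other markers in cells without *Cx3cr1* or *Il10*, so the remaining markers were not compared in these splits.

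Members did not form a cluster of their own. Macrophages of each library were clustered without the genes of the rule, which gave 21 clusters in the IgG library and 20 in the SPP1-nAb library, and members occurred in every one of them. The highest share of members was 49.4% (46.1 to 52.8), in IgG cluster 1 with 876 cells and the leading genes *Gm20513*, *Stat4* and *Ctnnd2*, and in the SPP1-nAb library 37.3% (35.1 to 39.6), in cluster 1 with 1868 cells and the leading genes *Tslp*, *Chp2* and *Bmp2*. The 3 clusters with the most members held 47.4% of the IgG members and 60.8% of the SPP1-nAb members. The lowest share was 0.994% (0.478 to 1.82) in IgG cluster 21, led by *Cxcl3*, *Inhba* and *Spp1*, and 0.825% (0.333 to 1.69) in SPP1-nAb cluster 20, led by *Rnase2a*, *Tmem26* and *Retnla*. The members were thus a minority in each cluster, spread over several states and rare in a few. Some clusters of barcodes with macrophage genes were led by genes of other cells, such as *Tnnt3* and *Acta1* of muscle fibers in IgG cluster 2 (38.3% members of 115 barcodes) and *Pdgfra* and *Smoc2* of mesenchymal cells in IgG cluster 11 (22.7% of 238), and doublets and free RNA were not told apart there.

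*Gpr34* and *Il10* were both high in some clusters with many members and unlike in others. IgG cluster 1, which held 18.2% of the IgG members, had *Gpr34* at 190 CPM and *Il10* at 225 CPM, and IgG cluster 10, with 13.8% of them and led by *Ednrb*, had 258 and 229 CPM. SPP1-nAb cluster 1, with 31.0% of the SPP1-nAb members, had *Gpr34* at 183 CPM and *Il10* at 206 CPM. IgG cluster 3, led by *D830025C05Rik* and holding *Ciita* and *Rapsn* among its leading genes, had *Gpr34* at 331 CPM and *Il10* at 29.9 CPM. IgG cluster 4, led by *Cd72*, *Arl5c* and *Acp5*, had *Gpr34* at 125 CPM and *Il10* at 295 CPM. Members made up 37.6% of the first and 35.6% of the second. In the SPP1-nAb library, cluster 3, led by *Gm33370*, had *Gpr34* at 215 CPM and *Il10* at 67.7 CPM, and cluster 4, led by *Ccl5* and *Ccl4*, had *Gpr34* at 67.0 CPM and *Il10* at 244 CPM. The rule thus joined clusters of unlike marker levels in both libraries.

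**Figure D4:**
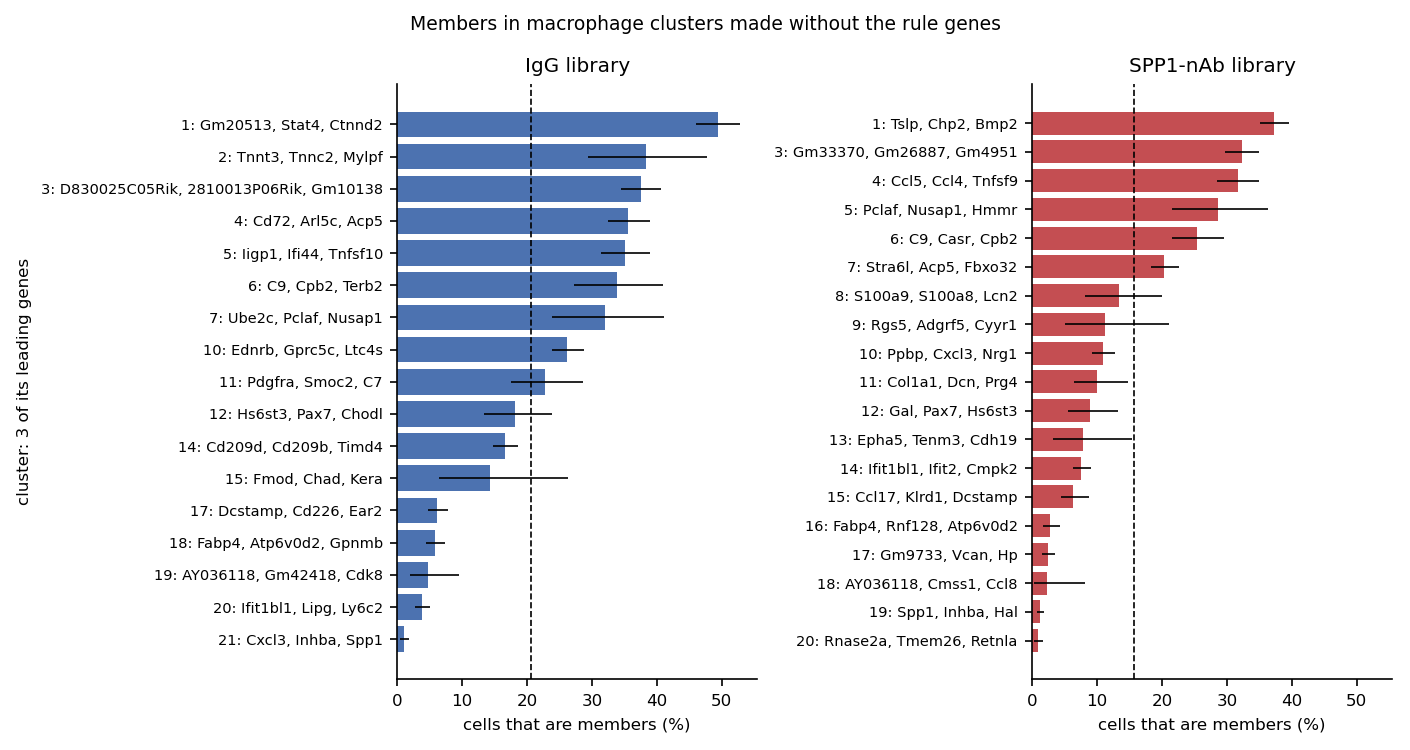
Share of cells that are members (x axis, percent, with exact 95% intervals) in each macrophage cluster of at least 50 cells, made without the rule genes and named by its number and 3 of its leading genes (y axis). Dashed lines mark the share among all macrophages, 20.6% (IgG) and 15.6% (SPP1-nAb). No share passes 50%, although the interval of IgG cluster 1 reaches 52.8%, and the lowest shares are those of the clusters led by Cxcl3 (IgG, 0.994%) and Rnase2a (SPP1-nAb, 0.825%).

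Between the libraries, *Gpr34* was at 265 CPM in the IgG members and 167 CPM in the SPP1-nAb members, a log2 ratio of -0.67 (-0.75 to -0.59), and *St3gal6* at 154 and 75.4 CPM, -1.03 (-1.14 to -0.91). *Bank1* had a log2 ratio of -0.47, *Cx3cr1* of -0.23, *Il10* of -0.24, *Fcrls* of -0.14 and *Cd33* of -0.09. Members must carry markers in either library, and in other macrophages the ratios were lower still, -1.50 for *Gpr34*, -1.83 for *St3gal6* and -1.37 for *Bank1*. Other macrophages include resident cells, which numbered 1832 of 9137 in the IgG library and 940 of 12157 in the SPP1-nAb library. In resident cells *Gpr34* was at 298 and 179 CPM, *St3gal6* at 143 and 57.6 CPM and *Bank1* at 150 and 87.8 CPM. The part of the resident share in the ratios of other macrophages was not tested. A lower share of members and lower marker levels per cell cannot be told apart here, since the rule counts detected markers.

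Of 9718 genes compared between SPP1-nAb and IgG members, 62 (0.638%) were at least 2-fold higher and 177 (1.82%) at least 2-fold lower, and the median log2 ratio was -0.04. With each cell thinned to 2000 UMIs, only 4780 genes had enough UMIs to be compared. Of these, 20 were higher and 8 lower, of which 7 were among the 62 and 4 among the 177. A gene no longer compared could not pass. Of the 62 genes, 18 were 2-fold higher also in the other macrophages of the SPP1-nAb library and all 62 had a ratio above 1 there. Of the 177, 49 were 2-fold lower and 168 had a ratio below 1. Over all genes compared, the median log2 ratio in other macrophages was -0.03. The shares of all genes that passed there are not given, so these counts are a description.

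Among the genes higher in SPP1-nAb members were some that were lower in members than in other macrophages. *Gpnmb*, a lysosomal glycoprotein, was at 21.2 CPM in the IgG and 93.7 CPM in the SPP1-nAb members, a log2 ratio of 2.14 against 0.79 in other macrophages, and *Nrg1*, the growth factor that acts on Schwann cells through ErbB receptors, at 59.9 and 204 CPM, 1.76 against 1.36. *Chil3*, a chitinase-like lectin of monocytes, was at 20.0 and 78.5 CPM, 1.97 against 1.92. Each was also higher in other macrophages, and all 3 stayed at least 2-fold higher in members once the 10% of barcodes scoring highest as doublets were removed. Few cells held many of these UMIs, the 10 richest IgG members 49.5% of those of *Chil3* and 26.7% of those of *Nrg1*. Of 12 lipid-associated genes 4 were at least 2-fold higher, *Gpnmb*, *Fabp5*, *Spp1* and *Atp6v0d2*. *Spp1*, which encodes the target of the antibody, went from 171 CPM in IgG members to 414 CPM with SPP1-nAb, a log2 ratio of 1.28, against 0.53 in other macrophages.

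Lower in SPP1-nAb members were mostly genes of mesenchymal cells. *Inmt*, *C7*, *Gpc3*, *Clec3b*, *Ogn* and *Gas1* were among the 12 leading genes, *Ogn* at 73.1 CPM in the IgG members and 17.4 CPM in the SPP1-nAb members, a log2 ratio of -2.07 (-2.30 to -1.86). Of the 177 lower genes 118 (66.7%) were over 10 times higher in mesenchymal-type barcodes than in members of both libraries, against 3.34% of all genes compared, and 0 of the 62 higher genes were. The mesenchymal list summed to 791 CPM in the IgG members and 344 CPM in the SPP1-nAb members, led by *Dcn*, and the mesenchymal-type barcodes numbered 2462 and 1116. Without the 10% of barcodes scoring highest as doublets, which removed 17.0% of IgG and 14.6% of SPP1-nAb members, the list summed to 76.5 and 110 CPM, *Ogn* had a log2 ratio of 0.052 (-0.55 to 0.66), and 30 of the 177 genes still passed the minimum of UMIs and the 2-fold ratio. Most of the lower genes thus passed only with the barcodes of high doublet score included. *Cd209d*, a lectin of resident macrophages, had log2 ratios of -2.15 in all members and -2.20 (-3.31 to -1.21) without the barcodes of high doublet score, but the latter rests on 41 and 11 UMIs, under the minimum of 100, and it passed in 4 of 9 alternatives.

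**Figure D5:**
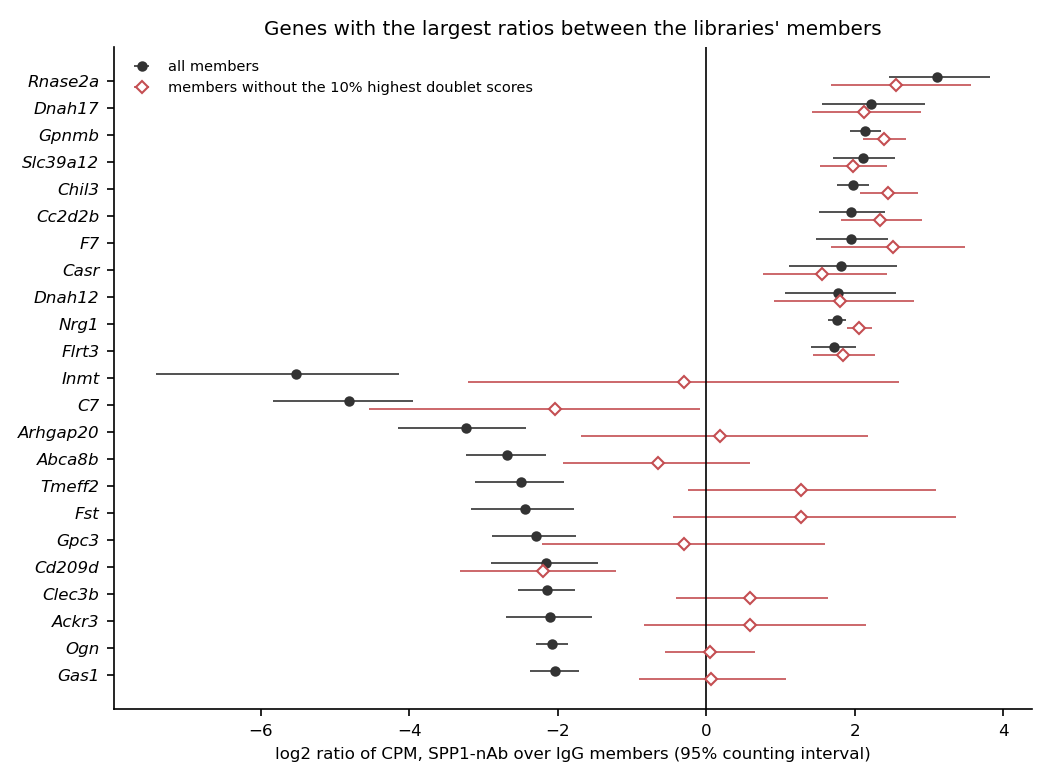
Log2 ratio of CPM between SPP1-nAb and IgG members (x axis, with exact 95% counting intervals) for 11 higher and 12 lower genes with the largest ratios in each direction (y axis), in all members (filled) and without the 10% of barcodes scoring highest as doublets (open). The 11 higher genes stay above 0, whereas 7 of the 12 lower genes move to the right of 0, each with few UMIs left and an interval that includes 0.

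Several genes of the lists by function had lower levels in SPP1-nAb than in IgG members. *Mef2c* was at 610 CPM in the IgG members and 384 CPM in the SPP1-nAb members (log2 ratio -0.67, and -0.97 in other macrophages), *Egr1* at 876 and 483 CPM (-0.86 and -1.30) and *Klf2*, a transcription factor, at 233 and 128 CPM (-0.86 and -1.08). *Klf4*, a related factor, was at 427 and 411 CPM (-0.055 and 0.080), so that its ratio was below 1 in members and above 1 in other macrophages. *P2ry12* was at 77.7 and 54.7 CPM (-0.51 and -0.93) and *Gpr183* at 254 and 144 CPM (-0.82 and -0.96). *Il1rn* was higher, at 108 and 242 CPM (1.17 and 0.44). *Adgre1*, *Csf1r* and *C1qb* hardly differed, with 449, 486 and 2891 CPM in IgG members and 449, 488 and 2970 CPM in SPP1-nAb members.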

How the data were processed

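The authors deposited counts of UMIs per gene and barcode, without normalization, after CellRanger's choice of barcodes. The file headers name cellranger 9.0.1 and the submitters' processing notes Cell Ranger 8.0.0 and GRCm39. The removal of ambient RNA, doublets and batch effects described in the methods came later. The members and lists were chosen with earlier results of these data known.

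Barcodes were filtered and classed by the rule given above. Counts were summed over cells and scaled to CPM. Genes needed at least 100 UMIs over the cells compared and a UMI in at least 20 cells of each library on the higher side. Named are rule genes, list genes, the 25 highest and 15 lowest ratios of members over other macrophages, and 12 per direction between the libraries. Leading genes of clusters and genes set against resident macrophages were named after their values were seen. Mitochondrial, ribosomal, hemoglobin, immunoglobulin, sex and rule genes were left out of the ranking. Doublets were scored by simulation (2 per barcode) but kept, and removal of the 10% with the highest scores was an alternative. Clusters were made per library with scanpy 1.11.5. Intervals are Clopper-Pearson, exact Poisson or, for ratios, binomial. The steps were tested on simulated data. *Mx1* was not matched in the features. A few named genes are not reported here. Of 32287 identifiers, 31674 were in GENCODE M39.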

Additional observations from a re-analysis of the deposited data

How the results depend on the processing

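The shares and counts of genes depended on the rule and on depth, while the difference in share (SPP1-nAb minus IgG, in percentage points) was below 0 in every alternative run. With cells thinned to 2000 UMIs the shares were 11.3% (IgG) and 6.33% (SPP1-nAb). Of 8948 genes then compared, 22 were at least 2-fold higher and 182 lower in members of both libraries. Of 4780 compared between the libraries, 20 were higher and 8 lower in SPP1-nAb members, and *Tmeff2* turned to 0.20. With at least 2 of the 7 markers the shares were 36.8% and 30.7% (-6.18), and of 11331 genes 32 were higher and 62 lower in members. With at least 4 they were 9.33% and 6.64% (-2.70), and 67 of 7725 genes were lower in SPP1-nAb members. With none of the 6 resident genes they were 12.7% and 10.6% (-2.14), 27 of 11331 genes were higher in members and 111 of 8577 lower in SPP1-nAb members. Leaving 1 marker out and asking for 3 of the other 6 gave 14.2% and 11.3% (-2.94) without *Gpr34*, 14.1% and 10.1% (-4.00) without *Fcrls*, 17.5% and 13.5% (-4.02) without *Bank1*, 14.8% and 10.3% without *Cd33*, 16.6% and 13.5% (-3.05) without *St3gal6*, 17.5% and 12.3% without *Il10*, and 15.8% and 11.4% without *Cx3cr1*. Genes higher in members numbered 31 of 11331 with per-cell CPM and 23 of 8986 with at least 300 UMIs. They numbered 27 of 11331 with depth weighting and 216 of 11000 against other macrophages without resident cells. With at least 300 UMIs, of 6931 genes 34 were higher and 49 lower in SPP1-nAb members. Without the 10% highest doublet scores, 288 of 10524 genes were lower in members and 43 of 8735 lower in SPP1-nAb members. The log2 ratio of SPP1-nAb over IgG then turned to 0.18 for *Arhgap20*, 1.28 for *Tmeff2* and *Fst* and 0.59 for *Clec3b* and *Ackr3*. It turned to 0.052 for *Ogn*, 0.069 for *Gas1*, 0.42 for the summed B cell list and 0.53 for the summed mesenchymal list. Each of these genes was left with fewer than 100 UMIs over the members of both libraries, and each gene's interval included 0. For *Fst*, 4 IgG and 12 SPP1-nAb UMIs gave an interval of -0.44 to 3.37. The cause of these changes was not tested. Of 1162 alternative values for 128 ratios of named genes and lists, 1103 had the sign of the main value, while 431 lay outside its counting interval and 10 more turned the sign of a ratio of at least 2-fold. Against resident macrophages, an alternative chosen after seeing the data (no highest doublet scores) gave 93 higher and 103 lower genes. No paired analysis was possible because each condition had 1 library, which also left no replicate to leave out. Depth limits genes of few UMIs, and thinning left 4780 genes to compare between the libraries.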

Other observations

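Antigen presentation and uptake genes lay close to those of other macrophages. Of 11 MHC class II and costimulatory genes that were compared, 0 were at least 2-fold higher or lower in members of both libraries and 8 had a ratio above 1 in both, against 43.0% of all genes compared, with a median log2 ratio of 0.26 (IgG) and 0.13 (SPP1-nAb). *H2-Aa*, a class II chain, was at 3609.9 and 3405 CPM in members against 2884 and 2974 CPM in other macrophages, and *Cd86*, a costimulatory ligand of T cells, at 694 and 637 CPM against 508 and 353 CPM. Of 12 uptake receptor genes 8 had a ratio above 1 in both libraries and 4 below 1 in both. *Mertk*, a receptor for apoptotic cells, was at 150 and 121 CPM against 108 and 79.1 CPM and its ligand *Gas6* at 224 and 207 CPM against 166 and 108 CPM, whereas *Cd36*, a lipid scavenger receptor, was at 466 and 377 CPM against 742 and 581 CPM. *Selenop*, which encodes a selenium carrier, was at 3501 and 3537 CPM against 2386 and 1889 CPM.

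Of 11 lysosomal genes 8 had a ratio below 1 in both libraries, against 35.4% of all genes compared, and 1 of them, *Atp6v0d2*, was at least 2-fold lower. *Ctsl*, a protease, was at 382 and 558 CPM in members against 625 and 968 CPM.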
